A study of Mus musculus with 10 samples.

Results

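The mouse Ly6 genes Ly6g, Ly6c1, Ly6c2, Ly6a, Ly6e and Ly6i were followed in myeloid cells of tumor-bearing mice with and without a conditional deletion of the phosphatase SHP-2. They were taken by name, and all 6 had a row among the 55421 genes of the count table. Mice had received MC17-51 fibrosarcoma cells 15 days earlier, and RNA sequencing had been done on myeloid-derived suppressor cells (MDSC) from the spleen and on tumor-associated macrophages (TAM) from the tumor. There were 2 samples of MDSC from Shp2f/f mice, 2 of MDSC from Shp2f/fLysMcre mice, 3 of TAM from Shp2f/f mice and 3 of TAM from Shp2f/fLysMcre mice. All 10 samples came from mice carrying floxed alleles of Ptpn11, the gene of SHP-2. The Shp2f/fLysMcre mice also carried Cre recombinase at Lyz2, the lysozyme M locus, which is active in macrophages, granulocytes and part of the monocytes. Whether any MDSC and TAM samples came from 1 animal, or animals were pooled, is not in the labels, which also give no age. For the study, MDSC were selected on magnetic beads as GR1hi Ly6G+ Ly6C- cells (the polymorphonuclear subset, PMN-MDSC), and TAM were sorted as CD45+ CD11b+ F4/80+ Ly6G- cells from the same mice. Ly6G and Ly6C protein were therefore part of the isolation, so cell type, tissue and isolation cannot be told apart.

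Ly6 proteins are small, cysteine-rich surface proteins of the Ly6/uPAR superfamily, held in the membrane by a glycosylphosphatidylinositol (GPI) anchor. Antibodies to them divide mouse MDSC into subsets. Granulocytic cells, the PMN-MDSC, carry high Ly6G, encoded by Ly6g, and little Ly6C. Monocytic MDSC carry high Ly6C, encoded by the near-identical genes Ly6c1 and Ly6c2, and no Ly6G. The GR1 antibody binds Ly6G and, more weakly, Ly6C. Ly6a encodes Sca-1, a marker of hematopoietic stem cells that interferons induce in many cell types. Ly6e, broadly expressed and also inducible by interferon, is known for its effect on the entry of viruses into cells. Ly6i encodes a lesser-known protein close in sequence to Sca-1.

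The 6 genes lie within 204.1 kb of chromosome 15 in the GRCm38 build, and each is annotated as protein-coding with its coding sequence in 3 exons. Ly6e (ENSMUSG00000022587) spans positions 74955051 to 74959905 on the plus strand. On the minus strand follow Ly6i (ENSMUSG00000022586, 74979534 to 74983430), Ly6a (ENSMUSG00000075602, 74994877 to 74998031), Ly6c1 (ENSMUSG00000079018, 75044018 to 75048830) and Ly6c2 (ENSMUSG00000022584, 75108158 to 75111970). Ly6g (ENSMUSG00000022582) closes the group at 75155240 to 75159126 on the plus strand.

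The coding sequences of Ly6c1 and Ly6c2 bear on how well their reads can be separated, and their first 240 bases are given here from the GENCODE transcripts of GRCm38, with the bases that differ between the pair in capitals.
Ly6c1: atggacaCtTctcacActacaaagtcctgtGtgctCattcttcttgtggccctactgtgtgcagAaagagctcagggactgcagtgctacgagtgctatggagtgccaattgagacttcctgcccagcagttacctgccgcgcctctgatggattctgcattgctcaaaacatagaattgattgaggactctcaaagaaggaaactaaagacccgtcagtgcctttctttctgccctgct
Ly6c2: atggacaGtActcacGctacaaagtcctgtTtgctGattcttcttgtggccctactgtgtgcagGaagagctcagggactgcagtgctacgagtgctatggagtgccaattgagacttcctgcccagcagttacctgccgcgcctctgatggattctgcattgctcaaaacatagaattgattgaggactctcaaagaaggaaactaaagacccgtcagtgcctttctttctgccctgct
Over the whole coding sequence, 387 of 396 bases were identical between Ly6c1 and Ly6c2 (97.7%). Ly6a and Ly6i, which both rose in MDSC and moved in opposite directions in TAM, are shown in the same way.
Ly6a: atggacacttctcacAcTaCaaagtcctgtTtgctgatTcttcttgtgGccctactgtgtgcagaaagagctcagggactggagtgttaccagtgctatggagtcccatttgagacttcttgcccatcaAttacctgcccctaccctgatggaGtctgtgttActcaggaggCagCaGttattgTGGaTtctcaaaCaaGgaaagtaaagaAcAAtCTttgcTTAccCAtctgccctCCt
Ly6i: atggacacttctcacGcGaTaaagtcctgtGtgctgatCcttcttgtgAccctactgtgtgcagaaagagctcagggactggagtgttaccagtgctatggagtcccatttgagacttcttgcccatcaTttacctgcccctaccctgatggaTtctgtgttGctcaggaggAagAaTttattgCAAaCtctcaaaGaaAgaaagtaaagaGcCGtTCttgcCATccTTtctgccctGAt
Ly6a and Ly6i were identical at 86.4% of 405 aligned positions, and 30 of the 240 bases shown differ. Ly6e stood apart from the other members, with 49.9% to 53.0% identity.

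Since reads were 42 nt long, every 42-base window of the members' annotated transcripts was compared with all annotated transcripts. Windows without a match in another gene made up 99.9% for Ly6e, 96.0% for Ly6g, 89.7% for Ly6i, 82.1% for Ly6c2, 75.5% for Ly6a and 61.3% for Ly6c1. Ly6c1 shared 25.3% of its windows with Ly6c2 (16.4% of those of Ly6c2) and 13.2% with Ly6a (18.1% of those of Ly6a). How the counting treated reads with several matches is not given in the sources used here. The values of Ly6c1 are therefore uncertain, the more so because Ly6c2 had 149.9 to 184.3 times its counts in the 4 MDSC samples.

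The promoter windows of Ly6g and Ly6c2 are shown because the first of these genes rose in MDSC and the second did not pass the test there. They are the RefSeq windows of 250 bases before to 50 bases after an annotated start (GRCm38.p6), chr15:75155079-75155378 on the plus strand for Ly6g and chr15:75111922-75112221 on the minus strand for Ly6c2, with capitals where aligned bases differ or a base stands opposite a gap in the alignment.
Ly6g promoter: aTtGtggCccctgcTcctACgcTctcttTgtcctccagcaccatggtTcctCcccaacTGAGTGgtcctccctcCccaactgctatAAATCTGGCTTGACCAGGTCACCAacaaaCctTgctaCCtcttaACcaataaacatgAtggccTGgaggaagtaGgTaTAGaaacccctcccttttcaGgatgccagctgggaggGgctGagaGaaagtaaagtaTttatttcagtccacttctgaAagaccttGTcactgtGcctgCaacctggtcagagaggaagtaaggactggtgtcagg
Ly6c2 promoter: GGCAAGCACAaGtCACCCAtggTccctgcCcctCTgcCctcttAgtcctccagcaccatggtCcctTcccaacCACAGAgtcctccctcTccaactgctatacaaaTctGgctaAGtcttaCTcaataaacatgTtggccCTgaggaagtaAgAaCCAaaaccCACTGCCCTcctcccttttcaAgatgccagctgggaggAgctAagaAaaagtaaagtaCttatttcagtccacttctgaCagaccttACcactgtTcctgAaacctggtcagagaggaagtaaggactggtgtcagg
These windows were identical in 72.5% of 324 aligned columns, of which 48 held a gap. Both strands were searched for GAAANNGAA, the core of the interferon-stimulated response element, and for TTCNNNGAA, the core of the gamma-activated site. Both motifs end in GAA, so matches of the pair can overlap. The first was present in 8.6% and the second in 8.3% of all 32851 promoter windows of the same length. Neither was found in the 2 windows each of Ly6g, Ly6c1 and Ly6c2. Windows for Ly6a, Ly6e and Ly6i were not analysed here.

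Total counts were 28844660 to 38222998 per library. Ptpn11, the targeted gene, was 99.2 and 113 CPM (counts scaled to library size) in MDSC of Shp2f/f mice and 79.7 and 94.8 in those of Shp2f/fLysMcre mice, a log2 fold change of -0.29 (edgeR quasi-likelihood, SE 0.143, adjusted p = 0.361). In TAM, Ptpn11 fell from 122.4 ± 2.39 to 53.0 ± 1.82 CPM (SD, n = 3 each, edgeR, adjusted p = 2.96e-09). Counts over the whole gene can include transcript of a deleted allele. MDSC Shp2f/fLysMcre replicate 2 stood apart: the summed level of the 14 fibroblast and stroma markers was 711.2 CPM in it and 31.2 to 52.5 CPM in the other 3 MDSC libraries. The members that passed and the gene lists in MDSC are therefore also given without this library.

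The identity of the cells was checked against the same markers that name the subsets. In all 4 MDSC libraries Ly6c2 exceeded Ly6g, by 13.8 and 20.0 times per kilobase of exon in Shp2f/f and by 5.97 and 5.82 times in Shp2f/fLysMcre. The size of this excess depends on the length taken for Ly6c2: over the longest transcript its mean level in Shp2f/f MDSC was 605.9 FPKM (CPM per kilobase of exon), against 11.1 FPKM for Ly6g. The granulocyte receptor gene Csf3r (172.6 to 240.2 FPKM) and the macrophage receptor gene Csf1r (178.5 to 249.8 FPKM) stood at like levels per length in these cells. Their RNA thus did not show the Ly6G-high, Ly6C-low pattern by which PMN-MDSC are gated at the protein level. Whether transcript follows surface protein was not tested, and the cells are called MDSC here, as labelled. In TAM, Ly6g had 2 to 11 counts per library and Adgre1, which encodes F4/80, was 636 to 997 CPM. Adgre1 was also present in MDSC, at 378.0 and 382.7 CPM in Shp2f/f and at 209.4 and 286.5 CPM in Shp2f/fLysMcre.

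Levels of the members were compared with each other per length of exon. In both MDSC groups the order from high to low was Ly6e, Ly6c2, Ly6a, Ly6g, Ly6i and Ly6c1. In both TAM groups it was Ly6e, Ly6a, Ly6c2, Ly6i, Ly6c1 and Ly6g. No neighbors in these orders had overlapping ranges over samples, in any of the 4 groups, and both other definitions of length gave the same orders. The cell types thus shared Ly6e at the top, and Ly6g moved from the fourth place in MDSC to the last in TAM.

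**Figure D1:**
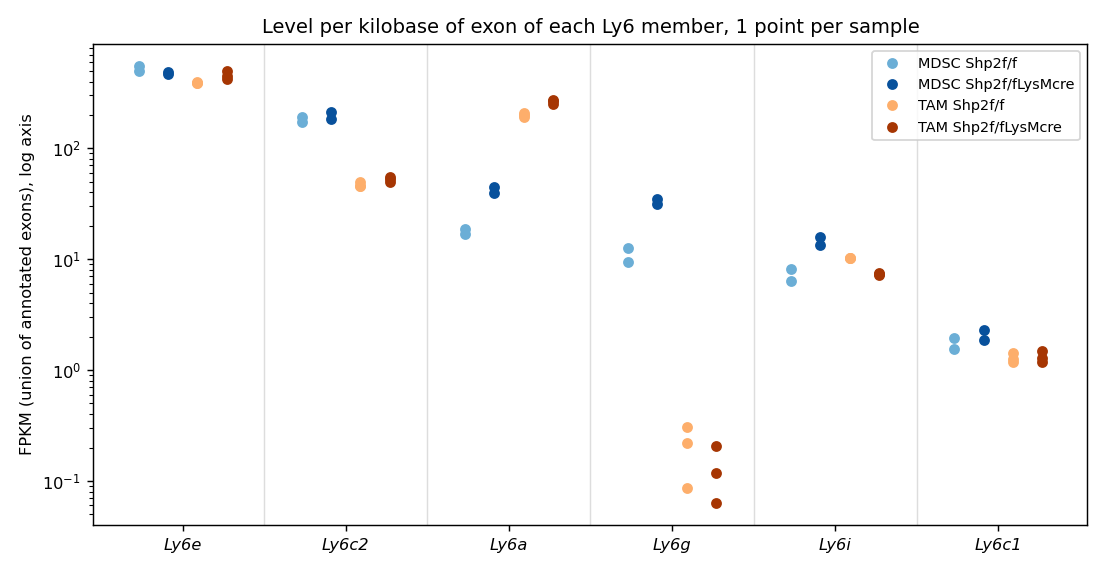
Level of each member per kilobase of exon (FPKM, log axis) in each of the 10 samples, 1 point per sample and 1 color per group. Ly6e was highest in each group (389 to 554 FPKM), Ly6a was higher in TAM than in MDSC, and Ly6g lay at 0.0631 to 0.304 FPKM in TAM.

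Ly6e, the broadly expressed member, had 494 and 554 FPKM in MDSC of Shp2f/f mice and 389 to 400 FPKM in TAM of these mice. Ly6c2, the main Ly6C gene in these cells, had 174 and 190 FPKM in MDSC of Shp2f/f mice and 45.6 to 49.8 FPKM in TAM. Ly6a had 16.8 and 18.8 FPKM in MDSC of Shp2f/f mice against 192 to 207 FPKM in TAM. Of these 3 genes, Ly6a was higher in TAM and Ly6e and Ly6c2 were higher in MDSC. Ly6i lay at 6.36 to 16.0 FPKM and Ly6c1 at 1.17 to 2.29 FPKM over all 10 samples.

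The first question was whether the members differed between Shp2f/fLysMcre and Shp2f/f MDSC. No group carried Cre without floxed Ptpn11, so loss of SHP-2, Cre itself and the change at Lyz2 cannot be told apart. Lyz2 was 9214.3 ± 351.6 CPM in Shp2f/f and 45.2 ± 2.73 CPM in Shp2f/fLysMcre MDSC (SD, n = 2 each). In TAM it was 3521.3 ± 125.8 and 11.2 ± 1.64 CPM (SD, n = 3 each). Ptpn11 itself was not called in MDSC, as given above. Ly6g, Ly6a and Ly6i rose in Shp2f/fLysMcre MDSC, by 3.01-fold, 2.36-fold and 2.02-fold, while Ly6c1, Ly6c2 and Ly6e did not pass the test. Of all 14806 genes tested in MDSC, 4.28% were called at an adjusted p under 0.05 (3.76% higher and 0.52% lower), against 3 of the 6 members, all higher. Since RNA came from bulk samples, a change in the number of cells of a type and a change in RNA per cell cannot be told apart.

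**Figure D2:**
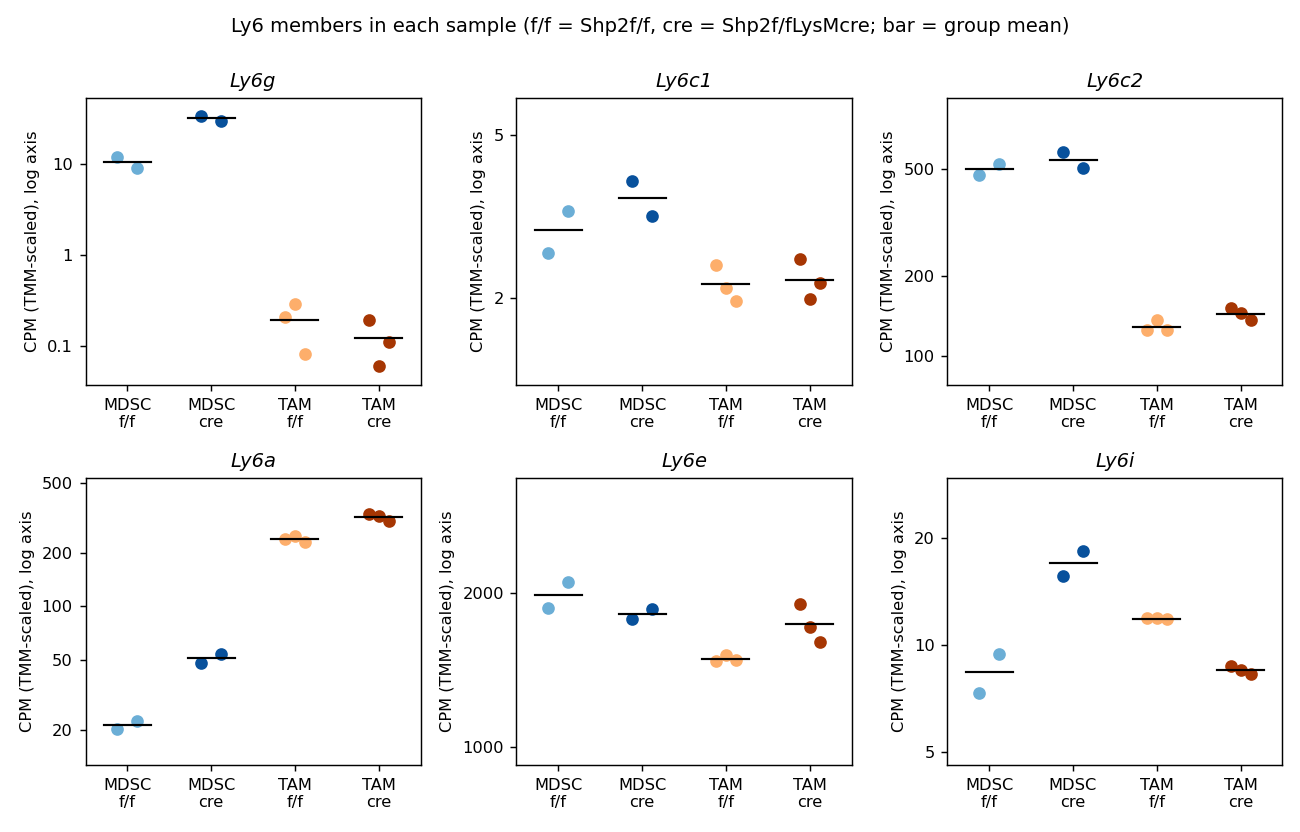
CPM (TMM-scaled, log axis) of each member in every sample, with a bar at the mean of each group of 2 (MDSC) or 3 (TAM) samples. In MDSC the Ly6g, Ly6a and Ly6i points of the genotypes do not overlap and are higher in Shp2f/fLysMcre. Those of Ly6e do not overlap either and are lower, and groups did not overlap for 48.9% of all genes tested in MDSC. In TAM the Ly6i points are lower in Shp2f/fLysMcre.

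Ly6g, the marker of granulocytic cells, was 11.9 and 8.92 CPM (410 and 309 counts) in MDSC of Shp2f/f mice and 33.2 and 29.8 CPM (1225 and 1189 counts) in those with Cre. Both Shp2f/fLysMcre samples lay above both Shp2f/f samples, and groups also did not overlap, in either direction, for 48.9% of all genes tested in MDSC. Ly6g rose by 1.59 on the log2 scale (edgeR quasi-likelihood, SE 0.177, adjusted p = 0.0186). Group means were 10.4 ± 2.11 and 31.5 ± 2.40 CPM (SD, n = 2 each). Without Shp2f/fLysMcre replicate 2 the log2 fold change was 1.68. Ly6G protein was part of the bead selection of MDSC, so differences in the cells selected and in Ly6g RNA per cell cannot be told apart.

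Ly6a, which encodes Sca-1, was 20.3 and 22.7 CPM in Shp2f/f MDSC and 47.9 and 54.1 CPM in Shp2f/fLysMcre MDSC. The groups did not overlap, and both samples with Cre were more than 20 CPM above those without. Ly6a rose by 1.239 on the log2 scale (edgeR quasi-likelihood, SE 0.123, adjusted p = 0.0183), and 1.16 without Shp2f/fLysMcre replicate 2. Ly6i, the relative of Ly6a, was 7.35 and 9.41 CPM in Shp2f/f MDSC and 15.6 and 18.4 CPM in Shp2f/fLysMcre MDSC. Its groups did not overlap either, at levels of 253 to 736 counts per library. The log2 fold change of Ly6i was 1.02 (edgeR quasi-likelihood, SE 0.176, adjusted p = 0.0421), and 0.90 without Shp2f/fLysMcre replicate 2. This call was lost with total-count scaling (edgeR, adjusted p = 0.0551) and with no filter on low counts (edgeR, adjusted p = 0.106).

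The Ly6C genes did not pass. Ly6c2 was 476 and 520 CPM in Shp2f/f MDSC and 577 and 505 CPM in Shp2f/fLysMcre MDSC, with overlapping groups. Its log2 fold change of 0.11 (edgeR, SE 0.133, adjusted p = 0.733) turned to -0.025 without Shp2f/fLysMcre replicate 1. Ly6c1, with 89 to 142 counts per library, was 2.58 and 3.26 CPM against 3.85 and 3.16 CPM, a log2 fold change of 0.25 (edgeR, SE 0.248, adjusted p = 0.669). Ly6e was 1871 and 2098 CPM in Shp2f/f MDSC and 1781 and 1858 CPM in Shp2f/fLysMcre MDSC. The Ly6e groups did not overlap, but the log2 fold change of -0.13 (edgeR, SE 0.124, adjusted p = 0.656) was within the spread between samples. With Ly6g higher and Ly6c2 not called, Ly6c2 exceeded Ly6g by fewer times in Shp2f/fLysMcre than in Shp2f/f MDSC, as given above.

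The calls in MDSC rested on 2 samples a group. When either Shp2f/f replicate was left out, Ly6g, Ly6a and Ly6i kept their direction but none passed (edgeR, adjusted p = 0.590 to 0.720), and 1 gene was called of all tested. When either Shp2f/fLysMcre replicate was left out, all 3 were called, with 27.2% (without replicate 1) and 18% (without replicate 2) of all genes called.

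**Figure D3:**
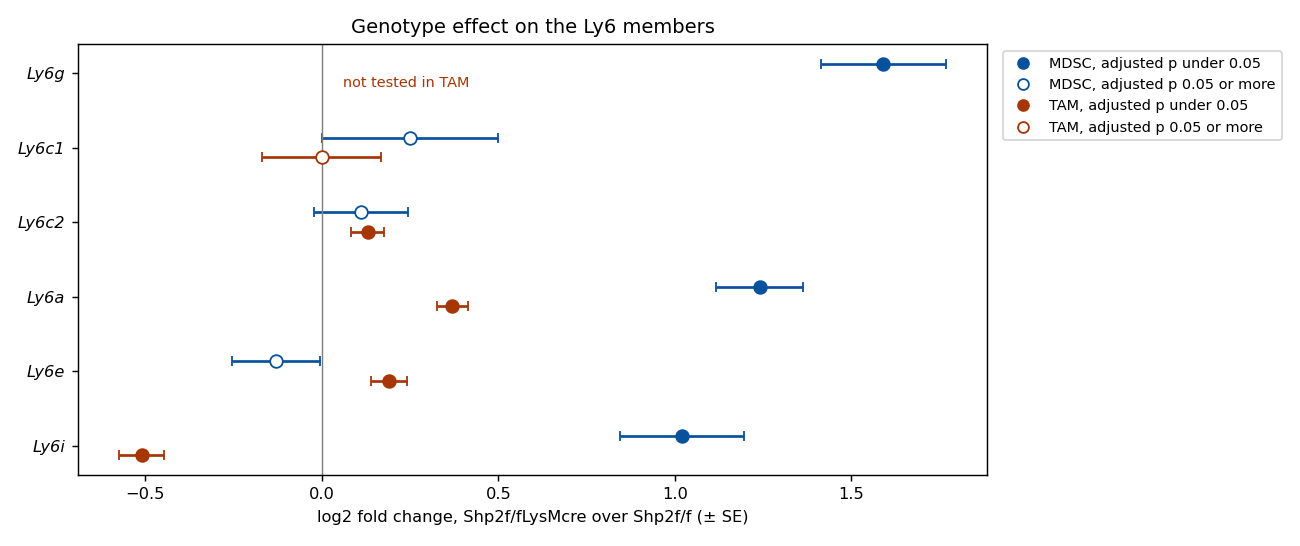
Log2 fold change of each member, Shp2f/fLysMcre over Shp2f/f, in MDSC and in TAM, with bars of 1 SE from the edgeR fit. Filled points passed an adjusted p of 0.05. Ly6g, Ly6a and Ly6i lie at 1.02 to 1.59 in MDSC, and Ly6i lies at -0.51 in TAM.

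The same comparison was made in TAM. Ly6a and Ly6e rose and Ly6i fell in Shp2f/fLysMcre TAM, Ly6c2 passed by a small margin, Ly6c1 did not pass and Ly6g was too low to be tested. Of all 14446 genes tested in TAM, 50.2% were called (23.9% higher and 26.3% lower), so the 4 called members of 5 tested are to be read against a call in every other gene. Scaling by total counts moved the median over all genes in TAM from -0.01 to -0.11 and changed the calls from 3452 higher and 3805 lower to 2342 higher and 5227 lower.

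Ly6a was 239.5, 249.2 and 231.8 CPM in Shp2f/f TAM and 331.5, 322.5 and 303 CPM in Shp2f/fLysMcre TAM. The groups did not overlap, as for 57.9% of all genes tested in TAM. Ly6a rose by 0.37 on the log2 scale (edgeR quasi-likelihood, SE 0.0432, adjusted p = 3.0e-05), equal to 1.3-fold. It passed in all 13 alternative fits, with log2 fold changes of 0.28 to 0.41.

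Ly6i was 11.9, 11.9 and 11.8 CPM in Shp2f/f TAM and 8.76, 8.5 and 8.31 CPM in Shp2f/fLysMcre TAM. The samples of each genotype lay close together and apart from the other genotype, with 226 to 458 counts per library. The log2 fold change was -0.51 (edgeR quasi-likelihood, SE 0.0636, adjusted p = 5.06e-05), and it passed in all 13 alternative fits. Ly6i, which rose in MDSC, thus fell in TAM.

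Ly6e was 1470, 1514 and 1479 CPM in Shp2f/f TAM and 1901, 1715 and 1604 CPM in Shp2f/fLysMcre TAM. All 3 samples with Cre were above those without, with a wider spread among them. Ly6e rose by 0.19 on the log2 scale (edgeR quasi-likelihood, SE 0.0506, adjusted p = 0.00881), and 0.09 after scaling by total counts (edgeR, adjusted p = 0.114).

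Ly6c2 was 125.5, 136.5 and 125.0 CPM in Shp2f/f TAM and 151, 145.0 and 136.3 CPM in Shp2f/fLysMcre TAM. These groups overlapped. The log2 fold change of 0.13 (edgeR quasi-likelihood, SE 0.0472, adjusted p = 0.0461) did not pass in 8 of 13 alternative fits, among them scaling by total counts (0.03, edgeR, adjusted p = 0.627) and the fits without TAM Shp2f/f replicate 1 or 3 or TAM Shp2f/fLysMcre replicate 1 or 2 (edgeR, adjusted p = 0.108 to 0.158). Ly6c1 lay at 1.96 to 2.40 CPM in Shp2f/f TAM and at 1.99 to 2.49 CPM in Shp2f/fLysMcre TAM, a log2 fold change of 0.00 (edgeR, SE 0.168, adjusted p = 0.989).

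Ly6g, on whose absence TAM were sorted, had 7, 11 and 3 counts in TAM of Shp2f/f mice, against 6, 2 and 3 with Cre. At these counts Ly6g was not kept by the filter on low counts, and no difference was detectable at this depth. With no filter on low counts the log2 fold change was -0.70 (edgeR, SE 0.693, adjusted p = 0.572).

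The genotype effects of the cell types were then compared directly, in 1 fit of all 10 samples. The effect in TAM minus that in MDSC was -1.50 for Ly6i (edgeR interaction, SE 0.164, adjusted p = 0.000179) and -0.84 for Ly6a (edgeR interaction, SE 0.11, adjusted p = 0.00051). Ly6i thus differed in direction and Ly6a in size, with the larger rise in MDSC. Both passed in all 17 alternative fits. For Ly6g the fitted difference was -2.27 (SE 0.586), given as a description only. Ly6g was too low to be tested in TAM, with 2 to 11 counts per library, and was kept in the fit of all samples by its MDSC counts. Ly6e differed by 0.35 (edgeR interaction, SE 0.115, adjusted p = 0.0512), Ly6c1 by -0.22 (SE 0.275) and Ly6c2 by 0.04 (SE 0.114), and none of these passed. The Ly6e difference passed in 7 of 17 alternatives, among them DESeq2 (adjusted p = 0.0026) and the replicate block (edgeR, adjusted p = 0.0302). Of all 16581 genes tested, 24.9% had a called difference, against Ly6a and Ly6i among the 5 members other than Ly6g. The 2 genotype comparisons use different samples, and each is a part of this difference. The study took MDSC and TAM from the same mice, but the labels do not match samples to mice. This fit and those between cell types therefore treated all 10 samples as independent.

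The cell types were also compared within each genotype, for the members whose proteins were not part of the isolation. Ly6a was 3.48 higher in TAM than in MDSC on the log2 scale in Shp2f/f mice (edgeR, SE 0.0891, adjusted p = 7.19e-10) and 2.64 higher in Shp2f/fLysMcre mice (edgeR, SE 0.0840, adjusted p = 2.63e-09). Ly6i was 0.50 higher in TAM in Shp2f/f mice (edgeR, SE 0.117, adjusted p = 0.00347). In Shp2f/fLysMcre mice Ly6i was lower in TAM, with a log2 fold change of -1.0 (edgeR, SE 0.113, adjusted p = 2.95e-05). Ly6i was thus higher in TAM without Cre and higher in MDSC with it, and its order between the cell types turned with genotype. Ly6e was lower in TAM in Shp2f/f mice, with a log2 fold change of -0.42 (edgeR, SE 0.0809, adjusted p = 0.00116). In Shp2f/fLysMcre mice its log2 fold change was -0.06 (edgeR, SE 0.0814, adjusted p = 0.498). Of all genes, 69.6% were called in Shp2f/f (35.1% higher and 34.6% lower in TAM) and 68.9% in Shp2f/fLysMcre (32.3% and 36.6%), so a call was the usual outcome. Groups did not overlap for 84.5% and 76.1% of all genes, and for each of these members except Ly6e in Shp2f/fLysMcre. With total-count scaling, calls in Shp2f/fLysMcre moved from 5354 higher and 6075 lower in TAM to 4297 and 7440, and Ly6e was called there (-0.26, edgeR, adjusted p = 0.0116). Ly6g, Ly6c1 and Ly6c2, whose proteins were used to isolate the cells, are not tested between cell types. The comparisons within and between genotypes use the same samples.

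The members were set beside the genes of the subsets they mark. Of 24 granulocytic MDSC and neutrophil markers tested in MDSC, 9 rose in Shp2f/fLysMcre, none fell and 15 did not pass. Their median log2 fold change was 0.49, against -0.01 over all genes. At an unadjusted p under 0.05, 14 were higher and none lower (edgeR), and DESeq2 called 12 higher and none lower. DESeq2 called 8.48% of all genes tested in MDSC, a share that also stands beside the lists below. The share of all genes at an unadjusted p under 0.05 is not given, so list counts by that rule have no background here. Ngp, which encodes neutrophilic granule protein, rose by 2.57 on the log2 scale (661 ± 69.8 to 3926 ± 795.6 CPM), and Ltf, the gene of the granule protein lactoferrin, by 2.49 (386 ± 51.3 to 2176 ± 522 CPM, SD, n = 2 each). The log2 fold change of Ly6g, at 1.59, was thus smaller than those of these granule genes. Of 22 monocytic MDSC and monocyte markers, none rose and 1 fell in MDSC (2 higher and 8 lower at an unadjusted p under 0.05, and 1 higher and 6 lower by DESeq2), with a median of -0.30. The 1 that fell was Lyz2, which carries the Cre insertion. Without Shp2f/fLysMcre replicate 2, 17 granulocytic markers were higher and 1 lower, and 3 monocytic markers were higher and 6 lower.

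In TAM, 15 granulocytic markers rose and 1 fell of 24 (median 0.49), and 14 monocytic markers rose and 4 fell of 22 (median 0.21). Of all genes tested in TAM, 50.2% were called, and the median over all genes was -0.01. With total-count scaling, 15 granulocytic markers were higher and 3 lower, and 11 monocytic markers were higher and 6 lower. Among the called granulocytic markers in TAM, Arg2, an arginase gene (1.23), and Cxcr4, a chemokine receptor gene (1.05), rose most. Mmp9, a gelatinase gene, fell (-1.06). These genes are active in macrophages as well. Granule genes were low in TAM in either genotype, Ngp at 4.44 to 7.01 CPM and Ltf at 3.02 to 5.01 CPM, beside the 2 to 11 counts of Ly6g.

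Ly6a and Ly6e are known interferon targets, and a list of 38 other interferon-response genes was read beside them. In MDSC 11 rose, none fell and 27 did not pass (median 0.42). At an unadjusted p under 0.05, 24 were higher and 1 lower (edgeR), and DESeq2 called 15 higher and none lower. Among the 11 called, the T cell attracting chemokine genes Cxcl9 and Cxcl10 rose most, with log2 fold changes of 2.60 and 1.76. Cxcl9 went from 0.970 ± 0.0981 to 5.92 ± 1.02 CPM and Cxcl10 from 3.72 ± 0.455 to 12.7 ± 2.76 CPM (SD, n = 2 each). In TAM 34 rose and 4 did not pass (median 0.25), and none fell by edgeR, at an unadjusted p under 0.05 or by DESeq2. With total-count scaling, 25 were higher and 1 lower in TAM. The log2 fold change of Ly6a, 1.239 in MDSC and 0.37 in TAM, lay above the median of this list in both cell types. That of Ly6e, at -0.13 and 0.19, lay below it in both. Without Shp2f/fLysMcre replicate 2, 25 were higher in MDSC.

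**Figure D4:**
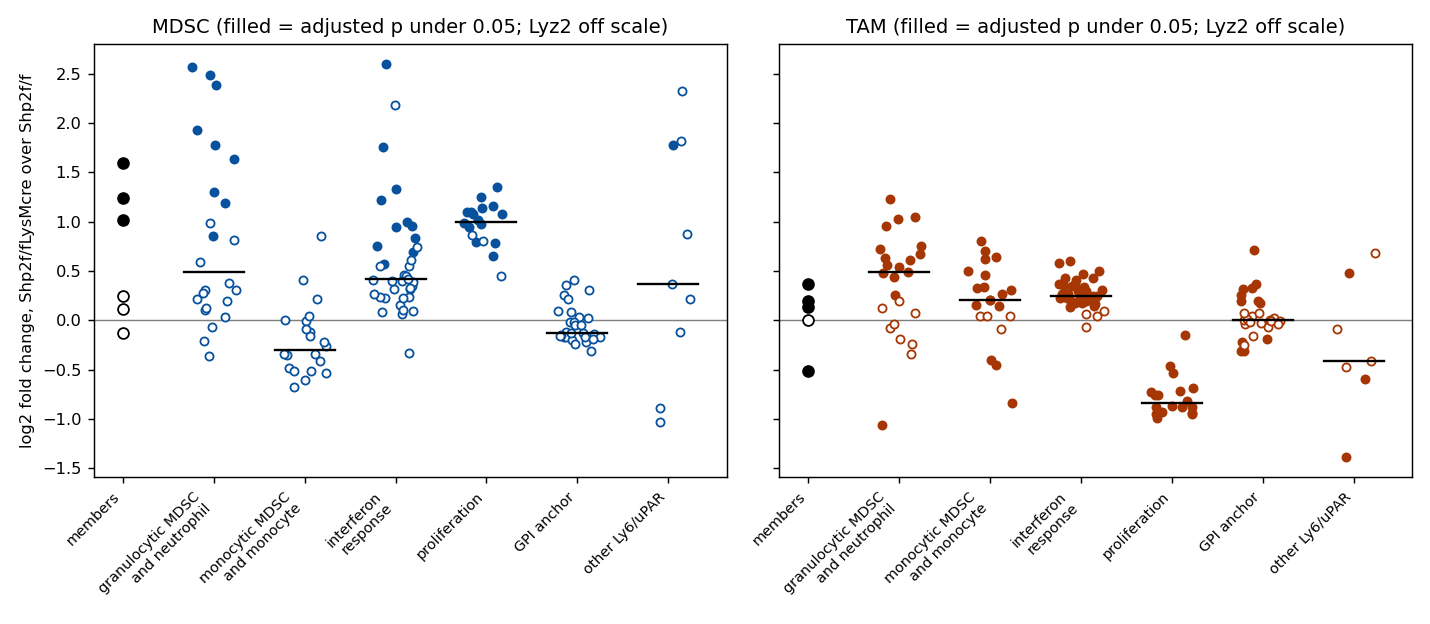
Log2 fold change, Shp2f/fLysMcre over Shp2f/f, of the members (black) and of the tested genes of 6 lists, in MDSC (left) and TAM (right). Filled points passed an adjusted p of 0.05, bars are list medians and Lyz2 is off the scale. Proliferation genes lie above 0 in MDSC (median 1.0) and below 0 in TAM (median -0.84).

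Genes of proliferation moved in opposite directions in the cell types, as Ly6i did. Of 18 such genes, 15 rose and 3 did not pass in MDSC (18 higher at an unadjusted p under 0.05 by edgeR, 17 by DESeq2), none being lower in any of these counts. Without Shp2f/fLysMcre replicate 2, all 18 were higher. In TAM all 18 fell. Cdk1, a kinase of the cell cycle, was 31.4 ± 1.5 CPM in Shp2f/f MDSC and 74.8 ± 4.26 CPM in Shp2f/fLysMcre MDSC (SD, n = 2 each), and 74.2 ± 2.93 and 39.9 ± 4.65 CPM in TAM (SD, n = 3 each). The part of proliferation in the values of Ly6i was not tested.

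Markers of other cells were read beside the members. The summed level of 14 erythroid markers was 591 to 616.5 CPM in Shp2f/f and 1228.5 to 1357 CPM in Shp2f/fLysMcre MDSC, and 11 of the 14 were called higher and 1 lower (12 and 1 without Shp2f/fLysMcre replicate 2). The 18 T and NK cell markers summed to 37.3 and 37.4 CPM in Shp2f/f and to 53.9 and 68.7 CPM in Shp2f/fLysMcre MDSC, none of them at 0 in either group. Of these 18, 1 was called higher and none lower (6 and 2 at an unadjusted p under 0.05 by edgeR, 2 and 0 by DESeq2, median 0.60), and without Shp2f/fLysMcre replicate 2, 3 were higher and 1 lower (median 0.18). The 15 B and plasma cell markers summed to 883.8 and 955.5 CPM in Shp2f/f and to 793.2 and 892.7 CPM in Shp2f/fLysMcre MDSC. This sum was also 703.9 to 738.1 CPM in Shp2f/f TAM, with Sdc1 at 287.5 ± 14.3 and Prdm1 at 217.7 ± 2.16 CPM (SD, n = 3). It is therefore not a measure of B cells alone. Of the 15 markers, 0 were called higher and 3 lower in MDSC (median -0.51, and -0.49 without Shp2f/fLysMcre replicate 2). Pax5 (3.16 ± 0.833 to 0.444 ± 0.0614 CPM) and Cr2 (3.77 ± 0.999 to 0.55 ± 0.104 CPM, SD, n = 2 each) fell most among those called. At an unadjusted p under 0.05, 4 were higher and 9 lower (edgeR), and DESeq2 called 2 higher and 5 lower. Since lymphocytes express Ly6a, Ly6e and Ly6c genes too, these sums stand beside the level of Ly6a, which was 20.3 to 54.1 CPM in MDSC. Of 12 endothelial markers, which belong to cells rich in Ly6a and Ly6c1, the sum was 36.9 and 37.1 CPM in Shp2f/f and 41.7 and 64.2 CPM in Shp2f/fLysMcre MDSC, and 2 were at 0 in Shp2f/f MDSC. Of the 8 tested, 0 were called by edgeR or DESeq2 (2 higher and none lower at an unadjusted p under 0.05 by edgeR, median 0.97), and without that replicate 1 was higher and 1 lower (median 0.03). In TAM, where Ly6a also rose, the T and NK cell sum was 114.6 to 117.8 CPM in Shp2f/f and 150.4 to 166.4 CPM in Shp2f/fLysMcre, but 15 of the 18 markers fell and 2 rose (median -1.14). Those that rose were Cd4 (17.9 ± 0.127 to 54.1 ± 0.178 CPM) and Il7r (68.6 ± 1.83 to 93.4 ± 8.63 CPM, SD, n = 3 each). The endothelial sum was 89.2 to 92.3 and 131.5 to 140.8 CPM in TAM, where 3 of 8 tested rose and none fell, Pecam1 from 30.4 ± 1.13 to 59.9 ± 3.18 CPM and Kdr from 35.8 ± 1.09 to 48.2 ± 1.74 CPM among them. TAM were sorted on CD45, CD11b and F4/80, and the purity of the sorted cells was not measured here. The 18 macrophage markers summed to 15542 to 16336 CPM in Shp2f/f TAM and to 25385 to 27974 CPM in Shp2f/fLysMcre TAM. The part of these cells in the members' values was not tested.

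Other genes of the Ly6/uPAR superfamily mostly had too few counts to be tested. Of 35 such genes in the table, 9 were tested in MDSC and 7 in TAM. In MDSC 1 rose, Cd177, a neutrophil surface gene, from 132 ± 6.96 to 454.5 ± 121 CPM (SD, n = 2 each, log2 fold change 1.78, SE 0.212, edgeR, adjusted p = 0.0206). None fell (4 higher and 1 lower at an unadjusted p under 0.05, and 2 higher and none lower by DESeq2), and without Shp2f/fLysMcre replicate 2, 3 were higher and 1 lower. The call of Cd177 was lost with no filter on low counts (edgeR, adjusted p = 0.0529). Cd177 was thus close to Ly6g in its log2 fold change, at higher counts. In TAM Cd177 rose by 0.48 from 5.30 ± 0.440 CPM (SD, n = 3), while Cd59a, which encodes a complement inhibitor, fell by 0.60 and Pate4 fell by 1.39 from a level of 0.675 CPM. Plaur, the gene of the urokinase receptor for which the superfamily is named, was 231 to 250.5 CPM in the MDSC group means and 411.5 to 427 CPM in those of TAM, and was not called in either. Of 28 genes that make or attach the GPI anchor, 0 were called in MDSC (3 higher and none lower at an unadjusted p under 0.05 by edgeR, 0 by DESeq2), and 2 were higher and 1 lower without Shp2f/fLysMcre replicate 2. In TAM, 8 rose and 4 fell, with a median of 0.00, and with total-count scaling 3 were higher and 7 lower.

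The genes around the members were read beside them. Of 25 other protein-coding genes within 0.5 Mb of either end of the group, 10 were tested in MDSC. Of these 10, 0 were called, where 4.28% of all genes were. At an unadjusted p under 0.05, 2 were higher and 1 lower (edgeR), and DESeq2 called 0. Their median log2 fold change was 0.38, against -0.01 over all genes, with SE of 0.13 to 0.729. With so few genes called in MDSC, 0 calls do not show that these stayed unchanged. In TAM 7 were tested, where 50.2% of all genes were called. Arc, a gene known from neurons, rose by 0.60 there, and Top1mt, the mitochondrial topoisomerase gene, and Them6 fell by 0.50 and 0.24, though the call of Them6 was lost in 9 of 13 alternatives, DESeq2 (adjusted p = 0.193) and 5 of the 6 fits that left out a sample among them. Without Shp2f/fLysMcre replicate 2, 1 of the 10 was called higher and 1 lower in MDSC. Along the chromosome, Ly6c1 and Ly6c2, which did not pass in MDSC, lay between Ly6a and Ly6g, which rose.

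**Figure D5:**
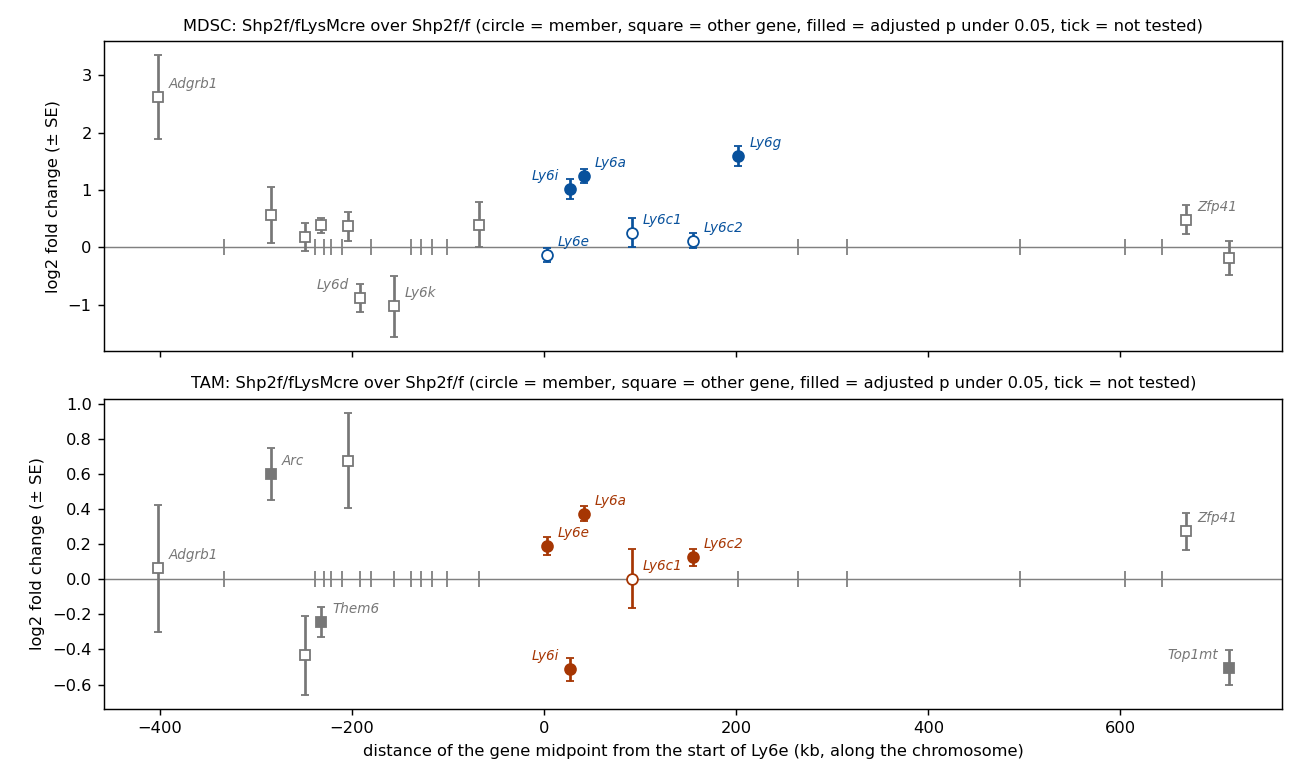
Log2 fold change (± SE), Shp2f/fLysMcre over Shp2f/f, of the members (circles) and of other protein-coding genes (squares) by distance from the start of Ly6e, in MDSC (top) and TAM (bottom); ticks mark genes not tested. In MDSC, Ly6i, Ly6a and Ly6g passed and none of the 10 other tested genes did, where 4.28% of all genes were called.

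The genes most alike in pattern to each member were sought over the 10 samples among the 8849 genes averaging 10 CPM or more, as a description, since the samples share their cell type and genotype. The 3 closest to Ly6a were Oasl1, Iigp1 and Usp18 (Pearson r = 0.998 to 0.999), and each is on the interferon-response list. Oasl1, an antiviral gene of the oligoadenylate synthetase family, was 12.1 to 13.9 CPM in Shp2f/f and 30.2 to 30.5 CPM in Shp2f/fLysMcre MDSC, and 119.8 to 129.3 and 160.7 to 166.0 CPM in TAM, in the same order of groups as Ly6a. The closest to Ly6i were Fen1 and Pola2, which act in DNA replication, and Mllt3 (r = 0.969 to 0.988). Fen1 was 40.3 and 71.3 CPM in the MDSC group means and 54.3 and 41.0 CPM in those of TAM. Ly6g was closest to Prickle3, Zfpm1 and Mpst (r = 0.993 to 0.994) and Ly6c2 to Arhgdib, Gyg and Xpc (r = 0.998 each). Those of Ly6e were Psen2, Prelid1 and Bloc1s1 (r = 0.972 to 0.979) and those of Ly6c1 were Maea, Ints9 and Usp7 (r = 0.936 to 0.958). By Spearman's rho, 1 of these 18 genes remained among the closest 3, so the names rest on the measure of likeness.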

How the data were processed

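Total RNA of spleen MDSC and tumor TAM was made into stranded poly(A) libraries and sequenced as paired 42-nt reads. Per the labels and the submitters' processing notes, the authors used cutadapt 2.5, FastQC 0.11.5, STAR 2.7.3a, the GRCm38 genome and featureCounts (Subread 1.6.2). The raw counts per gene that the authors deposited, not normalized, were used. The authors' DESeq2-normalized table was not used. Strand and multimapping settings are not given in the sources used here.

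Groups came from sample titles. Symbols came from GENCODE M21, which matched 99.52% of identifiers. The 6 members were named in the request, and members and gene lists were chosen with earlier results of these data known. Genes kept by filterByExpr (minimum count 10) were tested with edgeR 4.0.16 (R 4.3.3) by the quasi-likelihood F test after TMM scaling, within each cell type for genotype and over 10 samples for the interaction and cell types. P-values were adjusted by Benjamini-Hochberg over all genes tested. SE is the absolute log2 fold change divided by the square root of F. CPM and FPKM use TMM factors of all 10 samples, while genotype fits use those of 1 cell type, so ratios of CPM differ slightly from fold changes. FPKM uses the union of annotated exons. The labels do not say that samples of a group came from separate mice, so p-values measure only the spread between samples, which may be technical.

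Beside the members, Ptpn11 and the cell type genes Itgam, Adgre1, Csf1r and Csf3r, the genes to name were, by list, comparison and direction, the 2 called genes with the largest change, up to 5 called neighbors and the 3 genes most alike to each member. Not all are printed. Plaur was named outside this rule, after its values were seen. Alternatives were the DESeq2 1.42.0 Wald test, DESeq2 size factors, total counts, other filters, a single fit over all 10 samples, a replicate block, limma 3.58.1 voom, other lengths and leaving out each sample. The fits were tested on simulated data. Protein sequences were not used, and identity was computed on coding sequences in their place.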

Additional observations from a re-analysis of the deposited data

Results flagged for a closer look

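The genotype effect in TAM minus that in MDSC was tested as the interaction in a fit of all 10 samples (edgeR, Benjamini-Hochberg). It was -1.50 on the log2 scale for Ly6i, which rose in MDSC and fell in TAM. For Ly6a, which rose in both cell types, it was -0.84. The fitted value of -2.27 for Ly6g also passed the threshold but is no support for a difference, since Ly6g had 2 to 11 counts per library in TAM, was too low to be tested there and was kept in the fit by its MDSC counts. Its call was lost in 4 of 17 alternatives (edgeR, adjusted p = 0.0549 to 0.0844), without MDSC Shp2f/f replicate 2, TAM Shp2f/f replicate 1 or 2, or TAM Shp2f/fLysMcre replicate 2.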

How the results depend on the processing

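The number of genes called in MDSC moved with the processing, from 633 to 1256 with DESeq2, 130 with no filter on low counts, 2666 in a fit of all 10 samples, and 1 to 4406 when 1 of the 4 samples was left out (1 without either Shp2f/f replicate, 4406 without Shp2f/fLysMcre replicate 1 and 2729 without replicate 2). In TAM, 7257 calls became 4837 in the fit of all 10 samples, and the 4132 interaction calls became 2446 to 7023 when a sample was left out, lowest without MDSC Shp2f/f replicate 2 and highest without MDSC Shp2f/fLysMcre replicate 1. Of the 18 genes most alike to a member, Spearman's rho kept 1. Directions reversed only for members that did not pass: Ly6c1 in TAM was -0.095 with total counts, -0.009 with no filter, -0.004 with a filter of 1 CPM and -0.088 to 0.084 with a sample left out; Ly6c2 in MDSC was -0.025 to 0.215 with a sample left out; and the Ly6c2 interaction was -0.127 with total counts and -0.053 to 0.149 with a sample left out. Ly6i in MDSC did not pass with total counts (edgeR, adjusted p = 0.0551) or no filter (0.106). The Ly6e interaction passed in 7 of 17 alternatives. Of 335 alternative values for members, 296 kept direction and call. The causes were not tested.

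Replicate numbers were shared between groups, but the labels do not say that a number marks a shared mouse or day. Between genotypes, deviations from group means of same-numbered samples correlated at 0.174 in MDSC and at -0.0827, 0.0644 and 0.0343 in TAM. With 2 samples a group, both numbers in MDSC give the same value. Of the TAM samples, 2 of 6 correlated best with their own number. Between MDSC and TAM, the values were 0.0191 and 0.0259 in Shp2f/f and 0.0257 and -0.146 in Shp2f/fLysMcre. The samples were not taken as paired, and these values cannot show whether MDSC and TAM samples shared a mouse. The replicate block raised the MDSC calls to 2674. Under it Ly6c1 in TAM was -0.001, Ly6c2 in TAM no longer passed (edgeR, adjusted p = 0.052), and the Ly6e interaction passed (edgeR, adjusted p = 0.0302).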
